A study of Mus musculus with 8 samples.

Results

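RNA of 44 listed nuclear receptor genes was examined in whole perigonadal adipose tissue of mice made obese by diet. The genes were chosen by symbol from the receptor family, out of 23212 gene symbols with counts, and Pparg, Nr1d1 and Nr1d2 were not among them. Sequencing libraries came from 8 C57BL/6 mice, 1 library per mouse, in 2 groups of 4: wild-type mice, and mice carrying an adipocyte-specific gene knockout. Both groups were 20 weeks old, were matched for age and weight per the labels, and had eaten a 45% fat diet for 12 weeks from the age of 8 weeks. The promoter used to delete the gene in adipocytes is not given in the sources used here, and the whole tissue also holds cells in which no deletion was intended.

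Nuclear receptors are transcription factors, and many are switched by small lipid-soluble ligands such as steroids, thyroid hormone, retinoic acid, fatty acids and oxysterols. Receptors for thyroid hormone and retinoic acid, among others, hold corepressor complexes at their target genes when no ligand is bound, and ligand exchanges these for coactivators. Many work as heterodimers with a retinoid X receptor (RXR), and in fat the family takes part in adipocyte differentiation, lipid storage and the response to glucocorticoids.

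Levels are given as CPM, the counts of a gene scaled to a common library size by the TMM method, and, where genes are compared with each other, as CPM per kilobase (kb) of exon. Of the 44 receptors, 30 had enough counts to be tested among 14493 genes, and 30 reached a mean of 1 CPM, 29 of them tested genes together with Hnf4a. None of the 30 tested receptors passed the edgeR quasi-likelihood test at an adjusted p under 0.05, where 2 of all genes did (0.0138%), and each receptor had an adjusted p of 1. One receptor, Rxrg, had an unadjusted p under 0.05, against 323 genes or 2.23% of all those tested. The change of Rxrg lay above 0, as did those of 169 of these genes (1.17% of all tested). In no receptor were the 4 knockout libraries wholly above or wholly below the 4 wild-type libraries, which was the case in 209 genes or 1.44%. DESeq2 and limma voom called 0 receptors as well, and 17 and 0 genes of all (0.131% and 0).

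The libraries held 46444435 to 51431956 counts each, and the label of the tissue was borne out by 10 adipocyte markers, all detected, whose summed level was 40474 to 55181 CPM in wild type versus 44068 to 56548 CPM in knockout. Markers of other cell types were detected in both genotypes. Summed macrophage markers ranged from 479 to 1546 CPM in wild type and from 670 to 2689 CPM in knockout, with 10 of 10 genes above 0 in log2 fold change (median 0.54) and none past the threshold. Summed levels in wild type and knockout were 7.39 to 19.7 and 8.66 to 53.4 CPM for 9 T and NK cell markers, 5.82 to 43.0 and 8.15 to 43.7 for 7 B cell markers, and 906 to 1357 and 884 to 1396 for 10 endothelial markers. They were 2546 to 3958 and 2377 to 5379 CPM for 10 progenitor and fibroblast markers, 377 to 800 and 311 to 398 for 8 smooth muscle and pericyte markers, 236 to 1225 and 147 to 1088 for 8 mesothelial markers, and 31.6 to 79.9 and 11.6 to 43.5 for 5 skeletal muscle markers. Nearly all of the skeletal muscle sum was Acta1, at 30.6 to 78.9 CPM in wild type and 10.8 to 42.8 CPM in knockout. Mylpf reached at most 1.05 CPM, and Ckm, Myh4 and Tnnt3 at most 0.103, 0.0211 and 0.266 CPM, so these values do not show muscle in the tissue. The 9 T and NK cell markers were all above 0 (median 0.51), the 8 mesothelial markers all below (median -0.38), and 7 of 8 smooth muscle and pericyte markers below (median -0.39). In knockout mice 1 and 4 most of the T and NK cell sum was Il7r, 19.1 of 22.3 and 36.8 of 53.4 CPM. In knockout mice 2 and 3 Il7r was 3.19 of 8.66 and 4.51 of 16.4 CPM. Acta2, smooth muscle actin, was at 150 to 605 CPM in wild type versus 107 to 135 CPM in knockout, without overlap (log2 fold change -1.23, SE 0.41, unadjusted p 0.0152 and adjusted p 1 in edgeR). No marker passed the threshold, and each of these markers had counts in at least 1 library. Here and below, fewer cells of a type and less RNA per cell cannot be told apart, and the part of these mixtures in the receptor levels was not tested.

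A small number of the 44 receptors supplied most of their summed RNA, a sum that leaves out Pparg, Nr1d1 and Nr1d2. Per kb of exon, Nr1h3, Rxra and Nr1h2 together made up 46.5% of the 362 CPM per kb summed over all 44 genes, and the 9 most abundant made up 80.3%. Nr1h3 (LXR alpha, an oxysterol receptor) had the highest mean level of the 44, 72.5 CPM per kb, with a range of 59.5 to 85.0 over the 8 libraries. Rxra, the main heterodimer partner of the family, followed at 59.6 CPM per kb (50.4 to 73.2), so that its range overlapped that of Nr1h3. Nr1h2 (LXR beta) came next at 36.1 CPM per kb (32.7 to 40.8) and lay below every library of both. These were followed by Nr3c1, the glucocorticoid receptor, at 29.2, Thra, a thyroid hormone receptor, at 27.2, and Esrra, the estrogen-related receptor alpha, at 22.1 CPM per kb. These neighbours were not separated by their spread, with ranges of 24.4 to 36.8, 23.1 to 32.9 and 18.4 to 27.6 CPM per kb. Rxrb (17.1), Rarg (13.8), Nr2f6 (13.3), Rxrg (12.04) and Ppard (11.7) closed the set above 10 CPM per kb, and each overlapped the next.

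In the middle of the order, between 1 and 10 CPM per kb, lay Nr2f2 (5.99), Rara (5.85), Esr1 (5.63), Thrb (5.60), Nr2c2 (4.99), Nr2c1 (4.52), Nr4a1 (2.62), Ppara (2.30), Rora (1.94), Nr2f1 (1.80), Rarb (1.21) and Nr3c2 (1.20). Below 1 CPM per kb, Nr4a2 (0.702), Nr1h4 (0.649), Nr5a2 (0.484), Esrrg (0.476), Nr6a1 (0.476), Vdr (0.299) and Nr4a3 (0.164) were still tested. Of the 14 receptors that were not tested, 12 had at most 13 counts in any library: Nr0b1, Nr0b2, Rorb, Nr1h5, Nr1i2, Nr1i3, Hnf4g, Nr2e1, Nr2e3, Esr2, Esrrb and Pgr. Among these are the receptors best known from liver and gut (Nr1i2 and Nr1i3, the xenobiotic receptors PXR and CAR), from retina (Nr2e3) and from reproductive tissue (Pgr, the progesterone receptor). Hnf4g, Nr2e1 and Nr2e3 had 0 counts in every library, which allows up to 3 counts per library, or 0.0584 to 0.0632 CPM, for counting error alone. The remaining untested genes, Hnf4a and Nr5a1, were unevenly spread over the libraries and are described further on.

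**Figure D1:**
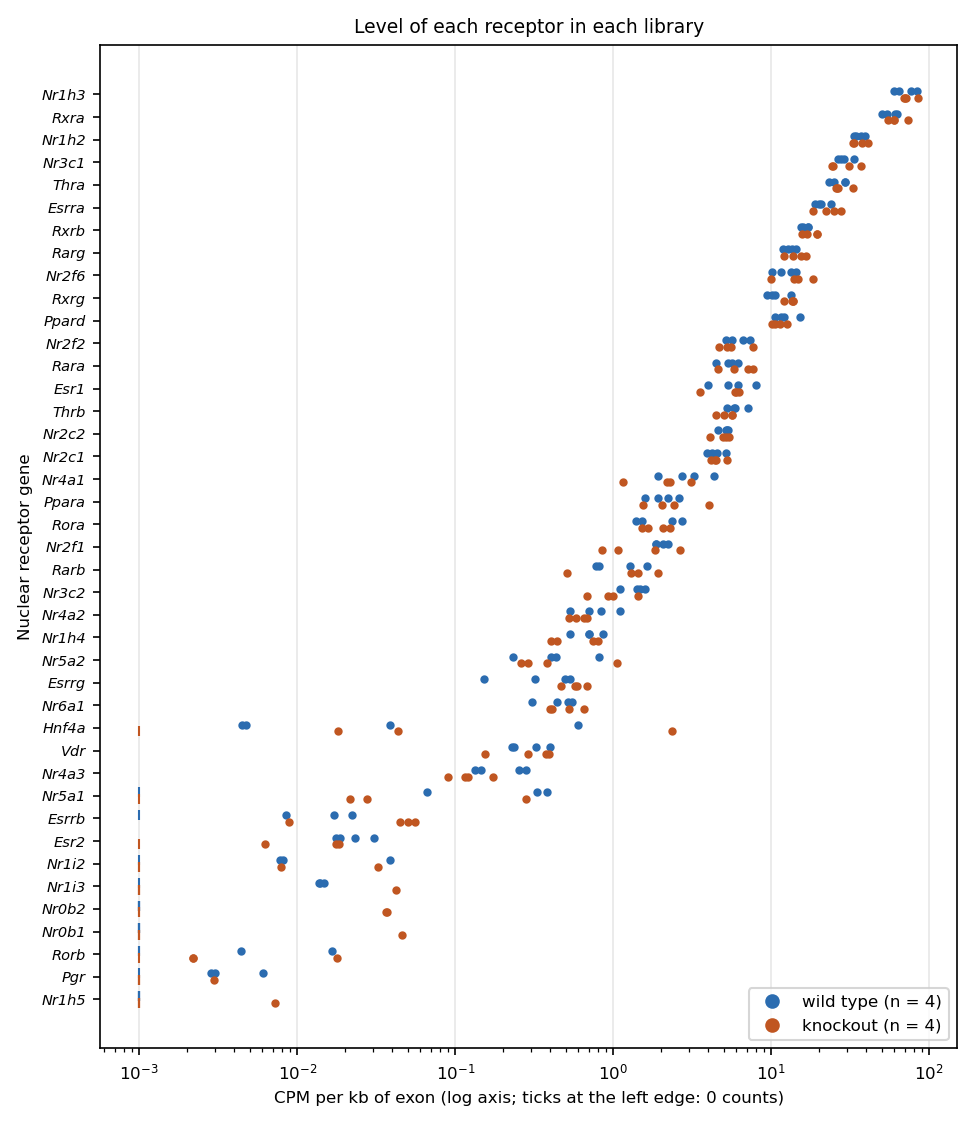
Level of each receptor in CPM per kb of exon (log axis) in each of the 4 wild-type (blue) and 4 knockout (orange) libraries, ordered by mean, with ticks at the left edge for libraries at 0 counts. Hnf4g, Nr2e1 and Nr2e3, at 0 counts everywhere, are not drawn. The colours overlap in every row, and the means fall from 72.5 for Nr1h3 to well below 1 CPM per kb.

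Promoter sequence is given beside these levels, since the windows of hardly detected receptors held fewer CpG dinucleotides than those of tested ones. RefSeq promoter windows (GRCm38.p6, 250 bases before to 50 after a gene's start) were found for 40 of the 44 genes, not for Thra, Hnf4g, Nr3c1 and Nr5a1. Windows of the 28 tested receptors held a median of 20 CpG dinucleotides and those of the 12 untested ones 5.5, beside 7 in all 32851 windows. A ratio of observed to expected CpG of 0.6 or more, a usual mark of CpG islands, was found in 19 of 28 (67.9%), 2 of 12 (16.7%) and 35.8% of windows. These are descriptions without a test. Exceptions ran both ways. Nr1h3, the most abundant per kb of the 44 receptors examined, had 8 CpGs and Nr2f2 had 2. Rorb and Nr2e1, at or near 0 counts, had 20 and 19. The windows of Rxra (chr2:27676951-27677250, plus strand, 55 CpGs), Nr1h3 (chr2:91195067-91195366, minus strand) and Nr1i2 (chr16:38294775-38295074, minus strand, 2 CpGs) show the contrast between an abundant receptor rich in CpG, an abundant one poor in CpG and a barely detected one. They are written 5′ to 3′ with each CG in capitals.
Rxra: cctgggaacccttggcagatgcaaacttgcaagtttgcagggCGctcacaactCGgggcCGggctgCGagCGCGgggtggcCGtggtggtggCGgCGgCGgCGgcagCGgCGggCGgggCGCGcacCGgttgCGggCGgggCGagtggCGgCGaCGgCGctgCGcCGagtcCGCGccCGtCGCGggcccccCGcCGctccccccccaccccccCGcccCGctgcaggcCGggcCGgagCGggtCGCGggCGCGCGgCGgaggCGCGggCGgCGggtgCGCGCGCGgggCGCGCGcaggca
Nr1h3: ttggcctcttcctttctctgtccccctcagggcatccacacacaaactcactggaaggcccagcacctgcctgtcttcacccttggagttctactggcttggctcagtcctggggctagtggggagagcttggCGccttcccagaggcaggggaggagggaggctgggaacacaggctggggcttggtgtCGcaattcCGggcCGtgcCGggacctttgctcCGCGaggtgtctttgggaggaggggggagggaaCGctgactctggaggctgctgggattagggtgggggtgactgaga
Nr1i2: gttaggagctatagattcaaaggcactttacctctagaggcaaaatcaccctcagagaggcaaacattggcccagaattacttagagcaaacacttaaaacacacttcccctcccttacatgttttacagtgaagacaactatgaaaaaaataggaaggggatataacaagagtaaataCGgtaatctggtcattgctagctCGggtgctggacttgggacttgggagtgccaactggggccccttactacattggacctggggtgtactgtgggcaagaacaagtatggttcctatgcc

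**Figure D2:**
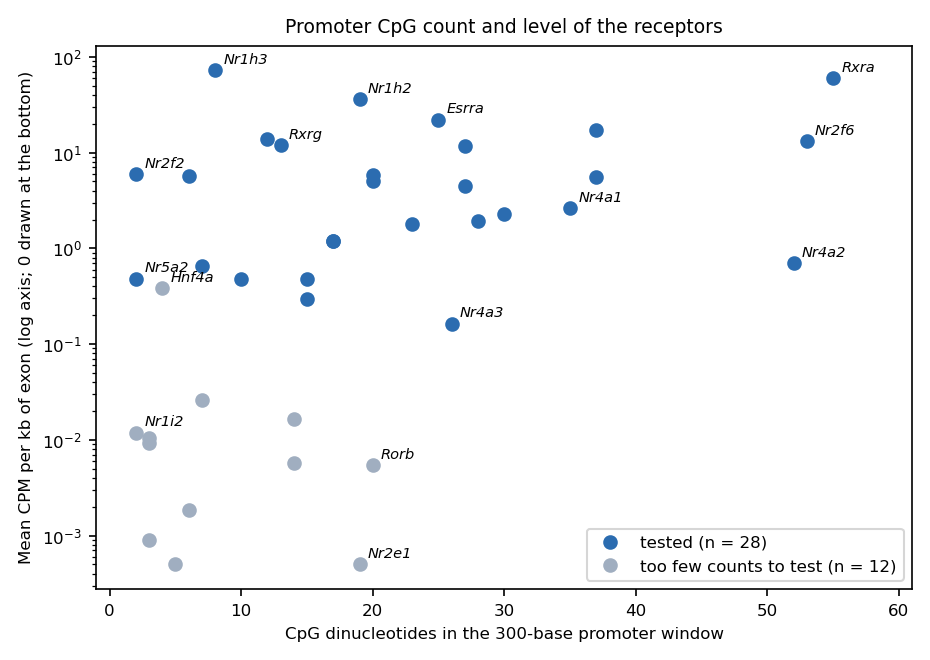
Number of CpG dinucleotides in the 300-base promoter window (horizontal axis) against mean level in CPM per kb of exon (vertical log axis) for the 28 tested (blue) and 12 untested (grey) receptors with a window; a level of 0 is drawn at the bottom. Every untested receptor has 20 CpGs or fewer, while tested ones range from 2 to 55.

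Across genotypes the receptors showed small differences in both directions. Of the 30 tested, 17 had a log2 fold change (knockout over wild type) above 0, or 56.7%, beside 53.1% of all tested genes, and the median was 0.033 beside 0.011. Without knockout library 3, 11 of 31 tested receptors were above 0 (median -0.053), and without wild-type library 2, 15 of 32 were (median -0.017). With limma voom, 15 were above 0 and 15 below (median -0.00088), so the direction of this count was not stable. The median size of the change, regardless of sign, was 0.14 in receptors and 0.11 in all tested genes. For 23 receptors the 95% interval of the change lay within 2-fold in both directions, and for 14 it lay within 1.5-fold. In the other 7 (Rarb, Nr2f1, Esrrg, Nr3c2, Nr4a1, Nr4a3 and Nr5a2) the interval reached a 2-fold change, so at this spread between mice no change and a 2-fold change could not be told apart. Intervals come from the model fitted over all genes.

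**Figure D3:**
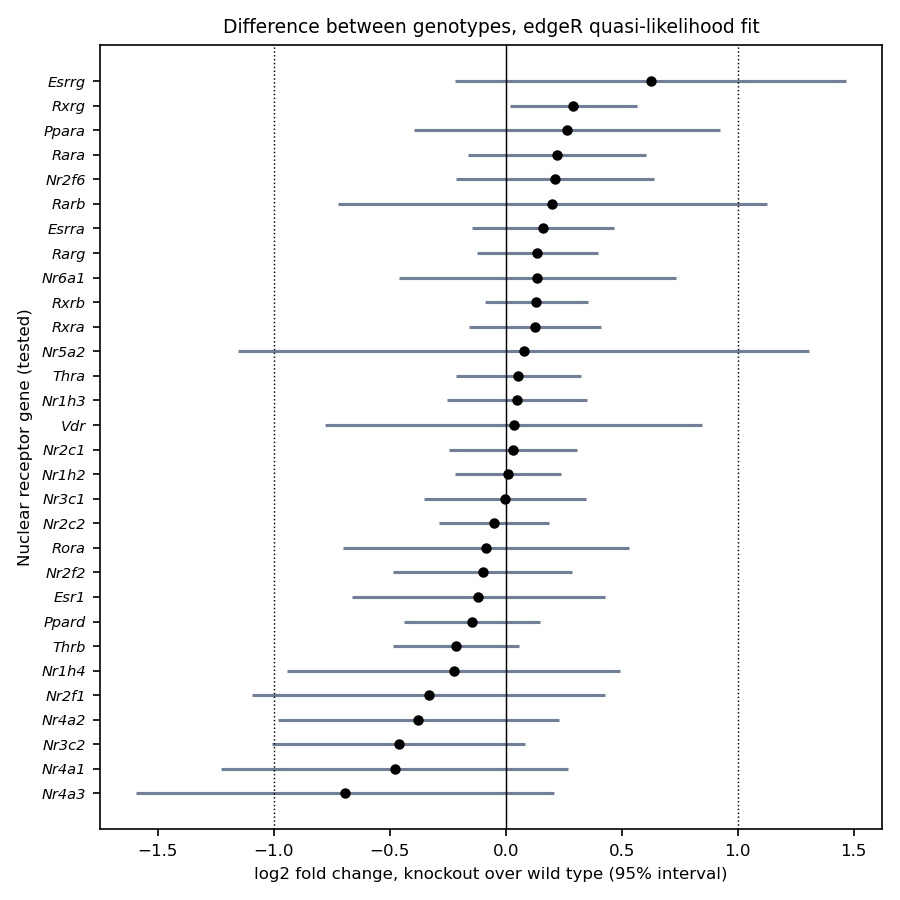
Log2 fold change of the 30 tested receptors, knockout over wild type (points), with the 95% interval from the edgeR quasi-likelihood fit (lines); dotted lines mark 2-fold. Every interval except that of Rxrg, 0.017 to 0.57, includes 0, and the widest belong to receptors of low level such as Nr5a2 and Nr4a3.

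The retinoid X receptors are the partners of the retinoic acid, thyroid hormone, LXR, PPAR and vitamin D receptors. Rxrg (chromosome 1, 167598362 to 167639623, plus strand; all positions are of build mm10) encodes RXR gamma, the member of more restricted expression. Its level in wild-type libraries 1 to 4 was 31.5, 23.7, 22.2 and 24.9 CPM, and in knockout libraries 1 to 4 it was 32.6, 28.4, 32.4 and 32.0 CPM. In 3 wild-type mice the level was below all 4 knockout mice, and wild-type mouse 1 lay among the knockout values. The means were 25.6 ± 4.08 CPM in wild type versus 31.3 ± 1.99 CPM in knockout (SD, n = 4 each). The log2 fold change was 0.29 (standard error, SE, 0.12), with an unadjusted p of 0.0395 and an adjusted p of 1 in edgeR. Leaving out wild-type library 2, 3 or 4 or knockout library 1, 3 or 4 raised the unadjusted p above 0.05, to at most 0.108. Without knockout library 2 it was 0.028, and without wild-type library 1 it was 0.0034.

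Rxra (chromosome 2, 27677201 to 27763319, plus strand) had 329, 321, 265 and 285 CPM in wild-type libraries 1 to 4 and 290, 317, 386 and 317 CPM in knockout libraries 1 to 4. Knockout mouse 3 was the highest and wild-type mouse 3 the lowest, with the other 6 mice intermixed. The log2 fold change was 0.13 (SE 0.13). For Rxrb (chromosome 17, 34031812 to 34038403, plus strand) the wild-type values were 47.1, 47.2, 42.4 and 43.9 CPM and the knockout values 43.4, 46.6, 54.0 and 53.9 CPM. Knockout mice 3 and 4 were above all wild-type mice, and the other knockout mice were within the wild-type range (log2 fold change 0.13, SE 0.098). Thus 3 of 3 RXR genes had a change above 0, none past the threshold. The ratio of Rxra to Rxrg per kb was 4.70 to 6.07 in wild type and 3.99 to 5.35 in knockout, and that of Rxra to Rxrb was 3.29 to 3.67 and 3.09 to 3.75. Neither ratio separated the genotypes.

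All 3 retinoic acid receptors were expressed. Rarg (chromosome 15, 102234940 to 102257483, minus strand), the most abundant of them, had 45.8, 40.9, 38.2 and 43.5 CPM in wild type versus 49.2, 38.8, 53.2 and 43.9 CPM in knockout. Knockout mice 1 and 3 were the highest, and knockout mouse 2 was near the lowest wild-type mouse (log2 fold change 0.14, SE 0.11). Rara ranged from 18.5 to 25.4 CPM in wild type and from 19.1 to 31.6 CPM in knockout (log2 fold change 0.22, SE 0.17). Rarb, itself a classical target of retinoic acid, ranged from 2.16 to 4.53 and from 1.42 to 5.33 CPM (log2 fold change 0.20, SE 0.41), a 3.75-fold span. None of the 12 tested genes of retinoid supply passed the threshold, 8 above 0 and 4 below, with a median of 0.038. Among 9 tested retinoic acid target genes, 7 were above 0 and 2 below (median 0.068). Stra6, the membrane transporter of retinol, was at 0.212 ± 0.0786 CPM in wild type versus 0.413 ± 0.216 CPM in knockout (SD, n = 4 each), and Dhrs3, which reduces retinal to retinol, at 276 ± 20.9 and 311 ± 80.2 CPM.

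Thyroid hormone acts through Thra and Thrb. Thra (chromosome 11, 98741873 to 98765111, plus strand) had 65.5, 52.0, 56.1 and 66.1 CPM in wild type versus 59.3, 58.4, 73.9 and 57.5 CPM in knockout. Knockout mouse 3 stood above the 7 others, while the other 3 knockout mice lay between the wild-type values (log2 fold change 0.06, SE 0.12). Thrb (chromosome 14, 17660960 to 18038088, plus strand) had 46.5, 38.1, 34.5 and 38.5 CPM in wild type versus 32.7, 37.1, 36.8 and 29.4 CPM in knockout. A total of 3 wild-type mice were above all knockout mice, and wild-type mouse 3 lay among them. Thrb had a log2 fold change of -0.21 (SE 0.12), with an unadjusted p of 0.107 in edgeR. Per kb, Thra exceeded Thrb 3.98- to 5.01-fold in wild type and 4.60- to 5.87-fold in knockout, and these ranges overlapped. Thra lies 173 kb from Rara on chromosome 11, and Thrb lies 1086 kb from Rarb on chromosome 14. All 4 tested genes of thyroid hormone supply were above 0 (median 0.20) and none passed. Dio2, the deiodinase that activates the hormone, was at 0.609 ± 0.229 and 0.921 ± 0.571 CPM for wild type versus knockout (SD, n = 4 each). Of 6 tested thyroid hormone target genes, 3 were above 0 and 3 below (median -0.029), and Thrsp, a lipogenic target, was at 1223 ± 338 and 1500 ± 541 CPM.

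The LXRs sense oxysterols and induce sterol efflux and lipogenic genes. Nr1h3 (chromosome 2, 91184061 to 91195116, minus strand) had 157, 171, 121 and 131 CPM in wild type versus 146, 140, 173 and 142 CPM in knockout. Its values in knockout mice lay within the wild-type range except for mouse 3, which was level with wild-type mouse 2 (log2 fold change 0.05, SE 0.13). Nr1h2 (chromosome 7, 44549633 to 44553923, minus strand) had 67.3, 65.3, 72.4 and 77.5 CPM in wild type versus 64.3, 65.9, 80.1 and 74.2 CPM in knockout. It varied least of the 30 tested receptors, 1.25-fold between the lowest and the highest mouse, and its log2 fold change of 0.01 had a 95% interval of -0.22 to 0.24. The ratio of Nr1h3 to Nr1h2 per kb was 1.61 to 2.53 in wild type and 1.85 to 2.19 in knockout. Nr1h4 (FXR, the bile acid receptor) was at 1.24 to 2.01 and 0.947 to 1.88 CPM (log2 fold change -0.22, SE 0.32). Among 12 tested LXR target genes, 6 were above 0 and 6 below (median -0.0057), and none passed. Scd1, the desaturase of fatty acids, reached 49599 ± 11418 CPM in wild type versus 34073 ± 12732 CPM in knockout, and Apoe at 5514 ± 847 and 4444 ± 1194 CPM (SD, n = 4 each).

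Of the fatty acid receptors, Ppard was at 34.2 to 48.9 CPM in wild type versus 32.3 to 40.5 CPM in knockout (log2 fold change -0.14, SE 0.13). Ppara, the main driver of fatty acid oxidation in liver, was at 11.9 to 19.8 and 11.6 to 30.5 CPM (log2 fold change 0.27, SE 0.29). Its highest value came from knockout mouse 2, without which the change was -0.067. The ratio of Ppara to Ppard per kb was 0.13 to 0.19 in wild type and 0.15 to 0.32 in knockout. Of 15 tested target genes of these receptors, 9 were above 0 and 6 below (median 0.0091). Acadm, an enzyme of fatty acid oxidation, was at 391 ± 68.6 and 445 ± 42.6 CPM (SD, n = 4 each). Vdr, the vitamin D receptor, was low at 0.990 to 1.73 and 0.674 to 1.70 CPM (log2 fold change 0.03, SE 0.36). Of 6 tested genes of sterol ligand and vitamin D metabolism, 2 were above 0 and 4 below (median -0.19).

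Esrra and Esrrg encode estrogen-related receptors, which bind no known natural estrogen and induce mitochondrial genes. Esrra (chromosome 19, 6910977 to 6921808, minus strand) had 46.1, 53.7, 42.5 and 44.6 CPM in wild type versus 41.4, 62.0, 49.6 and 56.2 CPM in knockout. Knockout mice 2 and 4 were above all wild-type mice and knockout mouse 1 below them (log2 fold change 0.16, SE 0.14). Its model shares 50 exonic bases with Trmt112. Esrrg (chromosome 1, 187609006 to 188214884, plus strand) had 2.74, 0.843, 2.98 and 1.78 CPM in wild type versus 3.19, 3.27, 3.81 and 2.62 CPM in knockout. A total of 3 knockout mice exceeded all wild-type mice, and knockout mouse 4 lay between wild-type mice 4 and 1. The means were 2.09 ± 0.978 and 3.22 ± 0.488 CPM (SD, n = 4 each). For Esrrg the log2 fold change was 0.63 (SE 0.37), with an unadjusted p of 0.127 in edgeR and a 4.52-fold span over the mice. Esrrb stayed at 13 counts or fewer in each library.

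Of the genes that the estrogen-related receptors are known to induce, all 11 tested ones were above 0, with a median of 0.080. Esrra is itself one of the 11. None passed the adjusted threshold, and 1, Cox8b, a subunit of cytochrome oxidase typical of muscle and brown fat, had an unadjusted p under 0.05. Cox8b was at 7.92, 7.71, 7.40 and 9.03 CPM in wild type versus 15.3, 15.6, 9.22 and 11.8 CPM in knockout. Its 4 knockout libraries were above the 4 wild-type libraries, with knockout mouse 3 close to wild-type mouse 4. The log2 fold change of Cox8b was 0.69 (SE 0.18), with an unadjusted p of 0.0041 and an adjusted p of 1 in edgeR. Sdhb, a subunit of succinate dehydrogenase, was at 177 ± 22.7 and 196 ± 31.1 CPM (SD, n = 4 each). Over the 13 lists of ligand supply, receptor target and immediate early genes, 115 tested genes that are not themselves receptors included this 1 gene at an unadjusted p under 0.05, or 0.870%, beside 2.23% of all genes. Without knockout library 2 the listed genes at that level were 10 of 115 (8.70%), beside 3.97% of all genes.

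Among receptors for steroids, Nr3c1 had 213, 175, 167 and 184 CPM in wild type versus 154, 233, 196 and 155 CPM in knockout. The 4 knockout mice took both the highest and the lowest places, so that their SD of 37.7 CPM was larger than the 19.9 CPM of wild type, around means of 184 and 185 CPM. For Nr3c1 the log2 fold change was -0.0027 with a 95% interval of -0.35 to 0.35. Nr3c2 (chromosome 8, 76902508 to 77243639, plus strand), the mineralocorticoid receptor, which also binds glucocorticoids, had 5.74, 4.53, 6.02 and 6.45 CPM in wild type. In knockout the values of Nr3c2 were 3.76, 4.10, 5.85 and 2.80 CPM. A total of 3 knockout mice were below all wild-type mice, and knockout mouse 3 lay within the wild-type range. The means were 5.68 ± 0.824 and 4.13 ± 1.27 CPM (SD, n = 4 each), and the log2 fold change was -0.46 (SE 0.24), with an unadjusted p of 0.0873 in edgeR. The ratio of Nr3c1 to Nr3c2 per kb was 17.9 to 25.0 in wild type and 21.6 to 36.7 in knockout. Among 14 tested targets of these receptors, 8 were above 0 and 6 below (median 0.025), and Fkbp5, a chaperone induced by glucocorticoids, was at 134 ± 46.2 and 112 ± 24.4 CPM.

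Esr1 (chromosome 10, 4612046 to 5003761, plus strand), the estrogen receptor alpha, had 34.5, 26.6, 17.1 and 23.0 CPM in wild type versus 25.8, 26.9, 25.3 and 15.3 CPM in knockout. A total of 3 knockout mice were near 26 CPM and knockout mouse 4 was the lowest of all, while the wild-type mice spread over a wider range (log2 fold change -0.12, SE 0.24). Esr2, the second estrogen receptor, had at most 5 counts in a library, and Pgr at most 2. Of 10 tested genes of steroid metabolism, 3 were above 0 and 7 below (median -0.051). Of 5 tested targets of estrogen and progesterone receptors, 2 were above 0 and 3 below (median -0.059). Igfbp4, a binding protein of insulin-like growth factors, was at 1051 ± 176 and 947 ± 108 CPM (SD, n = 4 each).

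The NR4A genes are immediate early genes without a classical ligand, switched on within minutes to hours by cyclic AMP, catecholamines and growth factors. Their promoter windows stood out by the element TGACG, the core of the binding site of CREB. TGACG, searched on both strands, occurred 4 times in each of the 3 windows, and 4 or more times in 0.231% of all windows and in no other receptor's window. At least 1 was found in 20.8% of all windows and in 14 of 40 receptor windows (35%). TGACG contains a CpG, and the windows of Nr4a1, Nr4a2 and Nr4a3 held 35, 52 and 26 CpGs, beside a median of 7 in all windows. Its frequency in windows of like CpG content was not examined, so the share over all windows can overstate how unusual 4 copies are. TGACG is part of the full palindrome TGACGTCA, which was found in 1.79% of all windows and in 2 receptor windows, neither of them of an NR4A gene. AGGTCA, the half-site that many nuclear receptors bind, was in 16.3% of all windows and 5 receptor windows, and TATAAA in 13.6% and 6. The windows of Nr4a1 (chr15:101266596-101266895, plus strand), Nr4a2 (chr2:57123954-57124253, minus strand) and Nr4a3 (chr4:48045055-48045354, plus strand) follow in RefSeq's GRCm38.p6, 5′ to 3′, with TGACG and its reverse complement CGTCA in capitals. The Nr4a3 window lies 5943 bases from the 5′ end of the authors' gene model.
Nr4a1: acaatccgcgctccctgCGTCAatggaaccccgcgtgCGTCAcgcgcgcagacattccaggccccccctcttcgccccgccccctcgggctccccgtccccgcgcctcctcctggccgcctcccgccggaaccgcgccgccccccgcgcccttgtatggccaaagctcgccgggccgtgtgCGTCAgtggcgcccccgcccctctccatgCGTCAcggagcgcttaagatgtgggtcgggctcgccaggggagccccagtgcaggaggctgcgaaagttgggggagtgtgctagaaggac
Nr4a2: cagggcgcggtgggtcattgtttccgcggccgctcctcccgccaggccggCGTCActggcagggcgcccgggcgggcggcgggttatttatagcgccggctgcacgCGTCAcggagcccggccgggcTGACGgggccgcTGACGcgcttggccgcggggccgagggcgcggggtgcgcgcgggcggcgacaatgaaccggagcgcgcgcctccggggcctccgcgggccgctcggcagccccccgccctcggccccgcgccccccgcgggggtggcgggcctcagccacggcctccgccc
Nr4a3: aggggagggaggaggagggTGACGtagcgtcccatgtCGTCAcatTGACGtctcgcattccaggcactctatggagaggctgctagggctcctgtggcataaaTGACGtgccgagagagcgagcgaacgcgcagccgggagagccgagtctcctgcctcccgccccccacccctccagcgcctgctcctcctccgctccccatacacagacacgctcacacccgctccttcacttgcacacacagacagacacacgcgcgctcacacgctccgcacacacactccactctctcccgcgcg

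All 3 NR4A genes had log2 fold changes below 0, none past the threshold. Nr4a1 (chromosome 15, 101266846 to 101274794, plus strand) had 4.75, 6.75, 10.7 and 8.00 CPM in wild type versus 5.64, 7.72, 2.84 and 5.44 CPM in knockout. The highest value was in wild-type mouse 3 and the lowest in knockout mouse 3, with the other 6 mice intermixed. The change of Nr4a1 was -0.48 (SE 0.33, unadjusted p = 0.181 in edgeR). Nr4a3 (chromosome 4, 48051248 to 48083352, plus strand) had 0.475, 0.275, 0.526 and 0.251 CPM in wild type versus 0.218, 0.226, 0.168 and 0.327 CPM in knockout, from 8 to 27 counts per library. Wild-type mice 1 and 3 were above all knockout mice, and the other wild-type mice lay among them. The change of Nr4a3 was -0.69 (SE 0.40, unadjusted p = 0.115 in edgeR), the largest in size of the 30 tested receptors. Nr4a2 was at 1.78 to 3.69 CPM in wild type versus 1.75 to 2.30 CPM in knockout (log2 fold change -0.38, SE 0.27).

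Of 13 other immediate early genes tested, 8 were above 0 and 5 below (median 0.016), and none passed. Atf3, a stress-induced transcription factor, had 7.28, 11.4, 16.1 and 5.93 CPM in wild type versus 33.2, 5.97, 6.84 and 68.0 CPM in knockout. Egr2 had 1.42, 1.94, 4.27 and 2.14 CPM in wild type versus 6.65, 1.87, 1.37 and 12.5 CPM in knockout. Both were high in knockout mice 1 and 4, which also had the highest summed macrophage markers, 1558 and 2689 CPM. Wild-type mouse 3 was close to knockout mouse 1 in these markers, at 1546 CPM, with Atf3 at 16.1 and Egr2 at 4.27 CPM. The part of macrophages was not tested. Fos was at 6.65 to 18.1 and 4.47 to 21.3 CPM, and Egr1 at 10.5 to 26.4 and 13.9 to 18.6 CPM, in wild type and knockout. In Nr4a1 the knockout mice 1 and 4 were between the other knockout values.

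The orphan receptors of the COUP-TF and TR families have no agreed natural ligand. Nr2f2 (COUP-TFII) was at 25.4 to 35.7 CPM in wild type versus 22.8 to 37.1 CPM in knockout (log2 fold change -0.10, SE 0.17), and Nr2f6 at 22.4 to 31.9 and 22.0 to 41.0 CPM (0.21, SE 0.19). Nr2f1 (COUP-TFI) was at 4.52 to 5.41 CPM in wild type versus 2.06 to 6.40 CPM in knockout. The 4 wild-type mice were close together and lay inside the knockout range, in which mice 1 and 4 were low and mouse 2 was high. Nr2f1 had a log2 fold change of -0.33 (SE 0.34), and its model shares 103 exonic bases with A830082K12Rik. Nr2c1 (TR2) was at 15 to 19.9 and 15.9 to 20.1 CPM (0.03, SE 0.12). Nr2c2 (TR4) was at 34.9 to 40.4 and 31.4 to 41.0 CPM (-0.05, SE 0.10), but 3536 of its exonic bases are shared with Mrps25, so that its counts are uncertain. Rora, whose product binds its site as a monomer, was at 2.30 to 4.46 and 2.50 to 3.74 CPM (-0.08, SE 0.27). Of 9 tested ROR target genes, 7 were above 0 and 2 below (median 0.049), and Nr1d1 and Nr1d2 are among the 9. The clock gene Arntl was at 4.09 ± 0.944 and 5.36 ± 1.34 CPM (SD, n = 4 each).

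Nr5a2 (LRH-1, best known from liver, pancreas and ovary) varied most of the tested receptors, 4.56-fold, from 0.896 to 3.14 CPM in wild type and from 1.00 to 4.08 CPM in knockout. Its change of 0.08 (SE 0.54) became -0.60 without knockout mouse 3, its highest library. Nr6a1, the germ cell nuclear factor, was at 1.93 to 3.47 and 2.53 to 4.14 CPM (log2 fold change 0.14, SE 0.26).

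**Figure D4:**
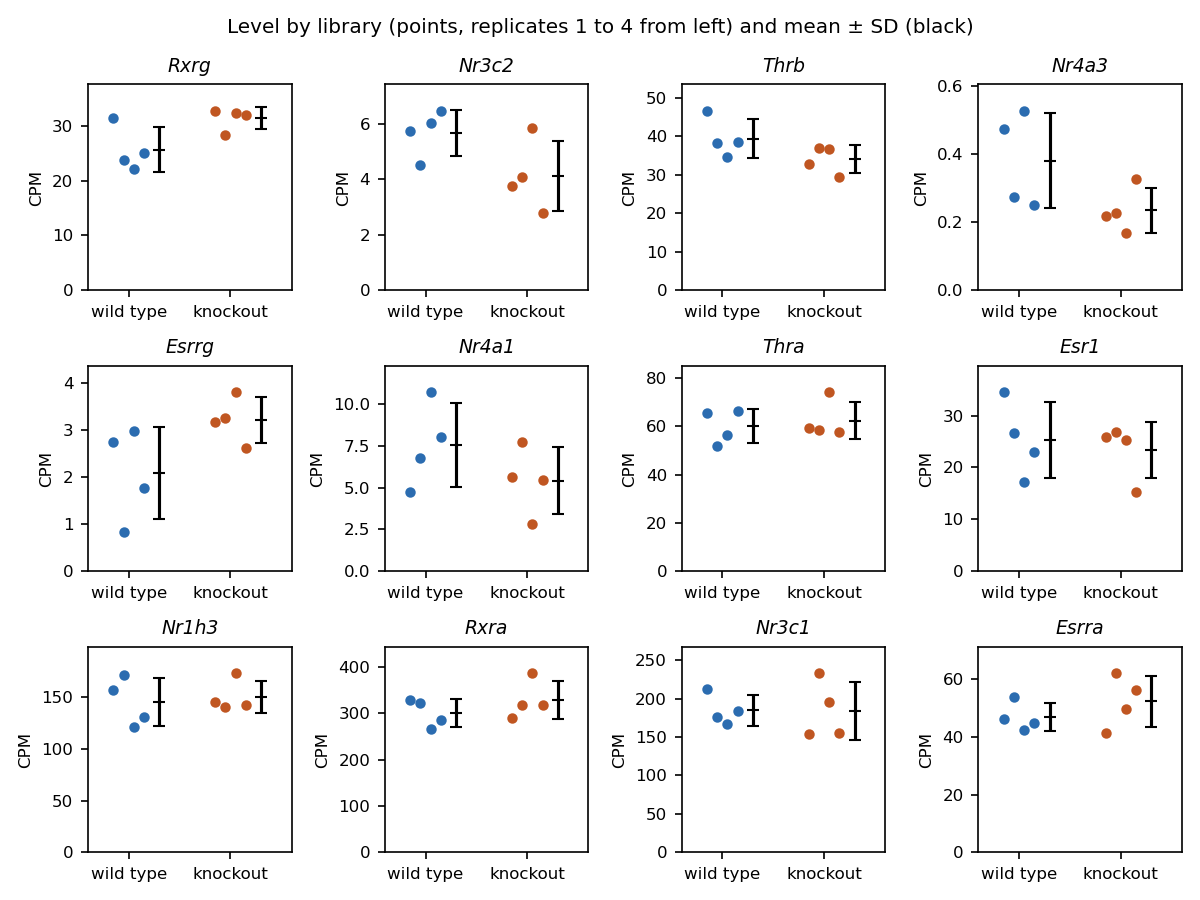
Level in CPM of 12 receptors in each library (points, replicates 1 to 4 from left; wild type blue, knockout orange) with the mean ± SD of each genotype in black; axes start at 0. In Rxrg 3 wild-type points lie below all knockout points and in Nr3c2 3 knockout points lie below all wild-type points, and in each panel the genotypes overlap.

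Single mice took part in several of these differences. Knockout mouse 3 gave the highest value for 11 of the 30 tested receptors, among them Nr1h3, Rxra, Nr1h2, Thra, Rxrb, Rarg and Esrrg, and knockout mouse 2 for 7, among them Nr3c1, Esrra, Ppara and Nr2f2. Wild-type mouse 3 gave the lowest value for 7, among them Nr1h3, Rxra, Rxrb and Rxrg, and the highest for 4. Knockout mouse 3 also gave the lowest value for 5, and knockout mouse 1 for 6. The summed adipocyte markers were highest in knockout mouse 3 (56548 CPM) and lowest in wild-type mouse 3 (40474 CPM). Other mice did not follow this order. Wild-type mice 1 and 4, at 54079 and 55181 CPM, gave the highest value for 4 and 1 receptors, and knockout mouse 2, highest for 7, was at 44068 CPM. The part of adipocyte content in the receptor levels was not tested.

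Hnf4a and Nr5a1, described here after their values were seen, were detected in some libraries and nearly absent from others. Hnf4a (chromosome 2, 163547188 to 163572907, plus strand), a receptor of liver, gut and kidney epithelium, had 0.021, 0.020, 2.61 and 0.168 CPM in wild type versus 0.079, 10.2, 0.189 and 0 CPM in knockout. It was thus found almost wholly in wild-type mouse 3, with 134 counts, and knockout mouse 2, with 498 counts, and no test was made. The same 2 libraries held Foxj1, a gene of ciliated cells, at 7.97 and 26.1 CPM, the epithelial adhesion gene Epcam at 5.79 and 19.6, Cuzd1 at 13.2 and 42.6, Cdh1 at 1.97 and 9.49, and Pax8 at 2.67 and 6.71 CPM. In the other 6 libraries these 5 genes reached at most 0.287, 0.491, 1.45, 0.294 and 0.257 CPM. These 5, named with their values known, belong to 9 detected markers of ciliated and epididymal epithelium, and the other 4 did not mark the pair as clearly. Tekt1 was highest in the same 2 libraries (4.23 and 10.8 CPM), with 3.10 CPM in wild-type mouse 2. Krt8 and Krt18 were present in every library, at 29.5 and 24.5 CPM in wild-type mouse 2 beside 11.5 and 16.8 CPM in wild-type mouse 3. Lcn8, a gene of the epididymis, was at 0 in wild-type mouse 3 and at most at 0.126 CPM elsewhere. Knockout mouse 2 exceeded wild-type mouse 3 by 3.93-fold in Hnf4a and by 2.51- to 4.82-fold in those genes. The summed level of the 9 markers was 7.21 to 64.1 CPM in wild type versus 6.32 to 175 CPM in knockout, and 5 of the 6 tested had a change above 0 (median 1.13). The part of such cells in the other receptor values was not tested. Without these 2 libraries Rxrg, Thrb and Nr2f1 no longer overlapped between genotypes, as 1410 of 14434 genes did (9.77%). Thrb was then the 1 receptor of 30 with an unadjusted p under 0.05 (0.046 in edgeR), beside 805 of all genes (5.58%).

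Nr5a1 (SF-1, chromosome 2, 38692660 to 38714542, minus strand), the receptor of steroid-producing cells, had 0, 0.196, 1.13 and 0.964 CPM in wild type versus 0, 0.823, 0.0632 and 0.0819 CPM in knockout. It was highest in wild-type mice 3 and 4 and knockout mouse 2, whereas the epithelial genes were low in wild-type mouse 4. Its gene lies 8.83 kb from Nr6a1.

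**Figure D5:**
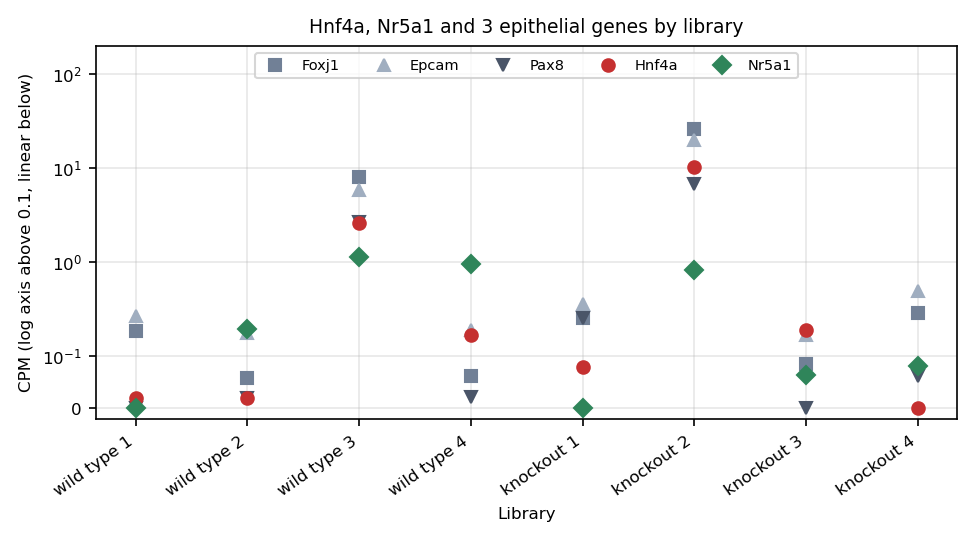
Level in CPM (log axis above 0.1, linear below) of Hnf4a, Nr5a1 and the epithelial genes Foxj1, Epcam and Pax8 in each library. Hnf4a and the 3 epithelial genes are above 1 CPM in wild-type mouse 3 and knockout mouse 2 and below 1 CPM in the other 6 libraries, whereas Nr5a1 is also near 1 CPM in wild-type mouse 4.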

How the data were processed

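RNA-seq counts of 8 whole perigonadal fat samples were used. The authors deposited a table of unnormalized integer counts for each mouse, by gene symbol. Per the submitters' processing notes, FastQC 0.11.2, STAR 2.4.0g1, featureCounts, Cufflinks, edgeR and build mm10 were used; the role of each tool and whether counting used strand are not given in those notes, so reads of overlapping genes cannot be told apart. Positions and exon lengths came from the authors' deposited annotation.

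Genes were filtered with filterByExpr, which kept 14493, scaled by TMM (factors 0.966 to 1.05) and compared by the robust quasi-likelihood F test of edgeR 4.0.16 in R 4.3.3, with Benjamini-Hochberg adjustment over all tested genes and a threshold of 0.05. The biological coefficient of variation common to all genes was 0.301. Each SE is the one implied by the F statistic. At 46444435 to 51431956 counts per library, the spread between mice and not counting set the precision, except for genes of few counts. No pair of libraries of a genotype agreed within sampling noise (smallest chi-square per degree of freedom 63). The procedure was tested on simulated data. The alternatives tried were scaling by median-ratio size factors or by total counts, a filter of 1 CPM in 4 libraries or none, a replicate block, omission of single libraries or of the epithelial pair, DESeq2 1.42.0, limma 3.58.1 voom, non-robust dispersion, and 10 CPM as the limit of expression.

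The receptors, the 10 marker lists and the 13 other lists were chosen with earlier results of these data known. Values in every library are given for receptors with an unadjusted p under 0.05, the 6 of smallest p, the 8 of highest level per kb and those with a library far from its group, and values are given from other lists for up to 3 genes of smallest p, these mostly as mean and SD; Hnf4a, Nr5a1, Fos, Egr1 and the epithelial genes were added with their values known. For the deleted gene, no value is given: the targeted gene is not reported here.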

Additional observations from a re-analysis of the deposited data

Results flagged for a closer look

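In 3 of 86 groups of 4 libraries, 1 library lay so far from the others that the gap to its nearest neighbour relative to the group's range exceeded Dixon's 95% critical value, where chance alone gives about 4.3. Thra was at 73.9 CPM in knockout library 3, beside 57.5 to 59.3 CPM in its 3 companions. Rxrg was at 28.4 CPM in knockout library 2, beside 32.0 to 32.6 CPM in the others. This knockout value was the one nearest to the wild-type mean of 25.6 CPM, and it lay below wild-type library 1, at 31.5 CPM. Esr1 was at 15.3 CPM in knockout library 4, beside 25.3 to 26.9 CPM in the others.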

How the results depend on the processing

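No receptor passed the adjusted threshold in any setting run (lowest adjusted p 0.870). Of 509 log2 fold changes recomputed for the 30 receptors, 473 kept their direction and 36, in 13 receptors, did not. The count of all genes past the threshold, 2, became 0 with total counts, no low-count filter, the replicate block, limma voom, without the epithelial pair and without any single library, and 17 with DESeq2. Receptors at an unadjusted p under 0.05 numbered 0 to 2 with a library left out: 0 without wild-type library 2, 3 or 4 or knockout library 1, Rxrg without wild-type library 1, Rxrg and Nr2f1 without knockout library 2, Rara and Nr3c2 without knockout library 3, and Esrrb without knockout library 4. All genes at that level were 1.66% to 3.97% of those tested. Receptors above 0 then numbered 11 to 20, and receptors whose groups did not overlap 0 to 3, beside 2.23% to 4.87% of all genes; the latter were 3 without the epithelial pair, beside 9.77%. The median change of receptors was 0.066 with total counts, 0.0071 with the replicate block, -0.00088 with limma voom, 0.017 without the epithelial pair, and -0.053 to 0.095 with a library left out. Listed ligand supply, target and immediate early genes at an unadjusted p under 0.05 were also counted. With no low-count filter they numbered 2 of 132 (1.52%, beside 2.87% of all genes). They numbered 2 of 115 with the replicate block (1.74%, beside 1.86%) and 8 of 114 without the epithelial pair (7.02%, beside 5.58%). With a library left out they numbered 2 to 10, the highest without knockout library 2 (8.70%, beside 3.97%). Paralogue ratios whose groups did not overlap numbered 1 without the epithelial pair and 0 to 1 with a library left out. With 10 CPM as the limit, 18 receptors were expressed.

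Changes of sign outside the omission of single libraries were Nr3c1 with total counts (0.032) and with 1 CPM in 4 libraries (0.0021), Nr5a2 with limma voom (-0.029) and the replicate block (-0.11), Vdr with limma voom (-0.0091) and Ppara without the epithelial pair (-0.18). With single libraries left out, the lowest and highest changes of receptors that turned were -0.039 and 0.11 for Thra, -0.054 and 0.46 for Rarb, -0.067 and 0.44 for Ppara, -0.22 and 0.099 for Rora, -0.053 and 0.060 for Nr1h2, -0.028 and 0.14 for Nr1h3, -0.12 and 0.25 for Vdr, -0.043 and 0.11 for Nr2c1, -0.098 and 0.018 for Nr2c2, -0.27 and 0.067 for Esr1, -0.14 and 0.073 for Nr3c1, -0.60 and 0.48 for Nr5a2, and -0.029 and 0.24 for Nr6a1. The cause was not tested. Same-numbered libraries of the 2 genotypes did not deviate together (correlations 0.117, -0.0152, -0.32 and -0.0173), and none correlated best with its own number, so the numbers are not taken as pairs; the block left Rxrg as the 1 receptor under 0.05.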
